A study of Mus musculus with 5 samples.

Results

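The adult globin genes, 3 genes that flank the alpha-globin cluster and 3 genes of early erythroid differentiation were examined in haematopoietic stem cells (HSCs) of mouse bone marrow. They are Nprl3, Mpg, Rhbdf1, Hba-a1, Hba-a2, Hbb-bs, Hbb-bt, Alas2, Klf1 and Gata1, 10 of the 55335 genes in the expression table, and they were found by gene name. They had been picked with their levels in these libraries known, so their levels and differences between the groups are described here without a test. The study compared 3 wild-type (WT) libraries with 2 libraries labelled RankCre-ki, all from mice at 3 weeks of age and labelled C57BL/6J. HSCs were sorted as Kit+ Sca-1+ cells without lineage markers (KSL) that were CD48- and CD150+, and a library holds the RNA of a pool of 80 to 90 cells, as read from the library names. RankCre-ki animals are, by the study's methods, RankCre/+;Csf1r fl/- mice. Cre sits in the Rank gene, 1 Csf1r allele is null and the other is floxed, and this Cre is described as active in embryonic macrophages and not in other immune cells, so that macrophages of embryonic origin, osteoclasts included, are missing. The label wild-type gives no further allele, and the Csf1r null allele had been kept on another strain, C3H/HeJ. The comparison asks how HSCs differ in animals that lack these macrophages.

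Haemoglobin of adult red cells is a tetramer of alpha chains, made by Hba-a1 and Hba-a2, and beta chains, made by Hbb-bs and Hbb-bt, each chain with a haem group. Gata1 and Klf1 are transcription factors that switch on globin, haem and membrane genes as progenitors enter the erythroid lineage, with Klf1 acting on CACCC elements such as that of the adult beta-globin promoter. Alas2 makes the erythroid form of the enzyme that opens haem synthesis. Nprl3 lies next to the alpha-globin genes, and its introns hold the main enhancers of those genes. Its protein is a subunit of GATOR1, the complex that restrains the growth kinase mTORC1 when amino acids are short. Mpg removes alkylated bases from DNA as the first step of base excision repair, and Rhbdf1 encodes iRhom1, an inactive rhomboid protein that guides the protease ADAM17 to the cell surface. HSCs are not haemoglobin-making cells, and the sort removes cells with the red cell marker Ter119.

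Promoter sequence is shown first for the genes whose levels are set against each other below, namely an alpha-globin gene, both beta-globin genes, Nprl3, Klf1 and Gata1. The promoter table held 9 of the 10 genes, and each line gives the 150 bases before the RefSeq start on build GRCm38.p6, 5′ to 3′ on the strand of the gene. Motifs were searched as letters on both strands, and matches are in capitals. They were CACCC, the box bound by Klf factors, with its reverse complement GGGTG, the CCAAT box, with ATTGG for the other strand, GATAA, the core read by Gata factors, with its reverse form TTATC, and the box TATAA, with the reverse form TTATA, whose matches on the strands can overlap.
Hba-a1 (chr11:32283522-32283671, + strand): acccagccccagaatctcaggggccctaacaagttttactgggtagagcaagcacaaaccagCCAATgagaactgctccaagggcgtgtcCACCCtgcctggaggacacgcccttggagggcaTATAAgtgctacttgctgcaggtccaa
Hbb-bs (chr7:103827929-103828078, - strand): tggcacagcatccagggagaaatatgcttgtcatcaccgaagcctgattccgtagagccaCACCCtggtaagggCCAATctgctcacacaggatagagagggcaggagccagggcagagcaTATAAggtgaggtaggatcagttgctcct
Hbb-bt (chr7:103813924-103814073, - strand): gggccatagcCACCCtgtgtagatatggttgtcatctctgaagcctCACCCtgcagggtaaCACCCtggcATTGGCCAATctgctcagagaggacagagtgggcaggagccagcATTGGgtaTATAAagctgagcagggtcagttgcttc
Klf1 (chr8:84901832-84901981, + strand): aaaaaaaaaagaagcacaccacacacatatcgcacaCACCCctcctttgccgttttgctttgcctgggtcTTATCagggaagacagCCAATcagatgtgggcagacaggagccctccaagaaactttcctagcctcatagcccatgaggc
Gata1 (chrX:7967911-7968060, - strand): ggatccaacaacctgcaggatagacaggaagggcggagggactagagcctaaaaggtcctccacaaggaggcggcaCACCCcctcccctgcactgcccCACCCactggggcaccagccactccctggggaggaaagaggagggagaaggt
Nprl3 (chr11:32267708-32267857, - strand): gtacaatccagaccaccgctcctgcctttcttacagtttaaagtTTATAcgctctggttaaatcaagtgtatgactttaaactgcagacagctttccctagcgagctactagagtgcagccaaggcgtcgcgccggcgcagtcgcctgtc
All 4 adult globin genes held the CACCC motif, a CCAAT box and the TATAA box in the 250 bases before the start, as did 1079 of 32851 promoters (3.28%). The TATAA match lay 27 to 30 bases before the start in each of the 4, and Hbb-bt held 3 matches each to the CACCC motif and the CCAAT box where Hbb-bs held 1 of each. Klf1 held the CACCC motif, a CCAAT box and the GATAA core but no match to TATAA. Gata1 held 2 CACCC matches, and Nprl3 held a single TATAA match 106 bases before its start. Singly these motifs are common, with the CACCC motif in 52% of all promoters, the CCAAT box in 33.8%, the TATAA box in 22.8% and the GATAA core in 22.6%. The windows of Hba-a1 and Hba-a2 shared a run of 247 of 250 bases, so the sequence of Hba-a2 is not shown, whereas the longest run shared by Hbb-bs and Hbb-bt was 14 bases. A motif match describes these letters and is not a measured binding site.

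Several properties of the libraries touch every value below. The library names fall into 2 series, with WT 1 and RankCre-ki 2 in series 1 and WT 2, WT 3 and RankCre-ki 1 in series 2. Sets of the same composition were prepared with different tagmentation kits. WT 1 and RankCre-ki 2 also held transcripts of the Y-linked gene Eif2s3y (41.6 and 62.5 TPM) and nearly no Xist, and the other libraries the reverse, although RankCre-ki 2 is labelled female. Sex and name series therefore cannot be told apart, and for some results that rest on RankCre-ki 2 the value without it is given too. The genes of the sort, Kit, Ly6a (Sca-1) and Slamf1 (CD150), were present in all 5 libraries. Cd48 was at 0 TPM in WT but at 4.92 and 5.62 TPM in RankCre-ki. Csf1r was at 2.39, 0 and 0.234 TPM in WT and at 17.5 and 6.46 TPM in RankCre-ki, opposite to the loss of an allele, so the groups are named by their labels. Genes with at least 1 TPM numbered 9021 to 11084 in WT, and 12801 and 16386 in RankCre-ki 1 and 2. Among the 13981 genes tested with limma, 0 (0%) passed an adjusted p of at most 0.1 with a log2 difference beyond 2, and no adjusted p was below 0.521. Without adjustment, p was under 0.05 for 886 genes (6.34%) that were higher and 74 (0.529%) that were lower in RankCre-ki. This split was 639 against 332 with median-ratio scaling and 425 against 191 with quantile normalization. The median log2 difference of all tested genes was 0.52, and it was 0.17 and -0.09 under those scalings.

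Nprl3 (ENSMUSG00000020289, chromosome 11, 32225628 to 32267707, GRCm38, minus strand) was close to absent from the WT libraries and present in both RankCre-ki libraries. Its level was 0.376, 0.0130 and 0.0702 TPM in WT 1, 2 and 3, and 35.7 and 34.6 TPM in RankCre-ki 1 and 2. All WT libraries lay below 1 TPM, and the RankCre-ki libraries, which are from different name series, were close to each other. The means were 0.153 ± 0.195 TPM (SD, n = 3) and 35.1 ± 0.770 TPM (SD, n = 2). On the log2(TPM + 1) scale, which understates changes of low genes, the difference RankCre-ki minus WT was 4.98, with a pooled SD within groups of 0.19. It was 4.69 within name series 1 and 5.14 within series 2. By the size of this difference Nprl3 ranked 9th from the top of the 13981 tested genes, and it passed the filter for testing (at least 1 TPM in at least 2 libraries) through the RankCre-ki libraries alone. A pattern of this kind was uncommon but not confined to Nprl3. All WT libraries were below 1 TPM with both RankCre-ki libraries at or above 10 TPM for 36 genes (0.257%), and for 4 genes (0.0286%) with both at or above 30 TPM. The reverse pattern was met by 0 genes at either level. The annotation lists 16 transcripts of Nprl3, of which 3 are protein-coding, 5 are marked for nonsense-mediated decay, 4 are processed transcripts and 4 retain an intron. TPM per gene does not show which of them gave the signal.

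**Figure D1:**
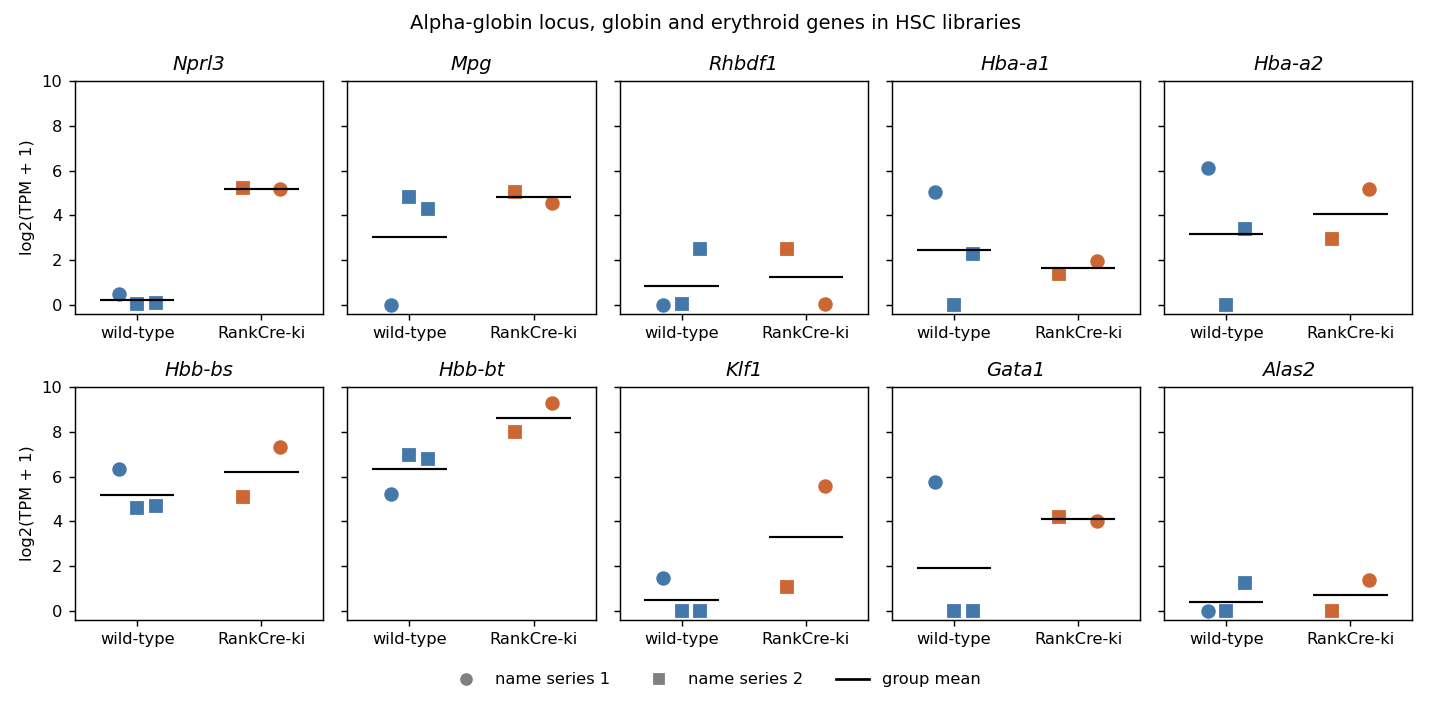
Level of each of the 10 genes as log2(TPM + 1) in the 3 wild-type (blue) and 2 RankCre-ki (orange) libraries, with circles for name series 1, squares for name series 2 and a bar for the group mean. The groups are apart for Nprl3 and Hbb-bt, whereas the points of the other 8 genes overlap or interleave between the groups.

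The genes beside Nprl3 did not share its pattern. Mpg (ENSMUSG00000020287, chromosome 11, 32226505 to 32232700, plus strand) was at 0, 27.2 and 18.2 TPM in WT 1, 2 and 3, and at 31.7 and 22.6 TPM in RankCre-ki. It was thus missing from 1 WT library, and the other 4 libraries overlapped between the groups. The difference was 1.77 on the log2(TPM + 1) scale, made of 4.56 in name series 1, where WT 1 is the only WT library, and 0.49 in series 2. Without WT 1 the values of Mpg in the groups were 27.2 and 18.2 against 31.7 and 22.6 TPM. Mpg lies wholly within the span of Nprl3 on the opposite strand. Of its 3752 exonic bases, 1340 (35.7%) are exonic in Nprl3 too, which is 17.7% of the exonic bases of Nprl3. Whether strand was used is not stated, so reads from the shared bases could be given to either gene. In WT 2 and WT 3, Mpg stood at 27.2 and 18.2 TPM while Nprl3 stood at 0.0130 and 0.0702 TPM.

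Rhbdf1 (ENSMUSG00000020282, chromosome 11, 32209585 to 32222300, minus strand), on the far side of Nprl3 from the globin genes, was at 0, 0.00733 and 4.70 TPM in WT and at 4.54 and 0.0322 TPM in RankCre-ki. It was therefore detected above 1 TPM in 1 library of each group, both of name series 2. The difference of 0.42 on the log2(TPM + 1) scale was smaller than the pooled SD of 1.54, and its sign turned under quantile normalization (-0.16), without WT 1 (-0.0030) and without RankCre-ki 1 (-0.79). Further along the locus, Snrnp25, which encodes a protein of the minor spliceosome, was at 0.509, 79.0 and 95.4 TPM in WT and at 67.3 and 97.1 TPM in RankCre-ki. WT 1 was thus the low library for Snrnp25 as it was for Mpg.

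The alpha-globin genes were low and uneven. Hba-a1 (ENSMUSG00000069919, chromosome 11, 32283511 to 32284465, plus strand) was at 31.6, 0 and 3.78 TPM in WT and at 1.58 and 2.87 TPM in RankCre-ki. Hba-a2 (ENSMUSG00000069917, chromosome 11, 32296489 to 32297298, plus strand) was at 68.2, 0 and 9.52 TPM in WT and at 6.77 and 34.5 TPM in RankCre-ki. For both genes WT 1 was the highest library and WT 2 was listed at 0, so the WT libraries enclosed the RankCre-ki libraries. The differences were -0.77 for Hba-a1 and 0.88 for Hba-a2 on the log2(TPM + 1) scale, against pooled SDs of 2.07 and 2.66. Within name series 1 they were -3.07 and -0.96, and within series 2 they were 0.24 and 1.26. Without WT 1 the difference of Hba-a1 was 0.53. The difference of Hba-a2 was -0.70 without WT 2 and -0.21 without RankCre-ki 2. The starts of Hba-a1 and Hba-a2 lie 15804 and 28782 bases from the start of Nprl3. In name series 1, RankCre-ki 2 held more Nprl3 and less of both alpha-globin transcripts than WT 1.

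The beta-globin genes had the highest group means of the 10, although not the highest levels in every library, and Hbb-bt was the only gene besides Nprl3 whose RankCre-ki libraries both lay above all WT libraries. Hbb-bt (ENSMUSG00000073940, chromosome 7, 103812524 to 103813996, minus strand) was at 36.2, 124 and 109 TPM in WT and at 251 and 632 TPM in RankCre-ki. The means were 89.7 ± 46.9 TPM (SD, n = 3) and 442 ± 270 TPM (SD, n = 2), and the RankCre-ki libraries themselves were far apart. The difference was 2.32 on the log2(TPM + 1) scale (pooled SD 0.95), with 4.09 in name series 1 and 1.10 in series 2. Without RankCre-ki 2 the difference of Hbb-bt was 1.65. Hbb-bs (ENSMUSG00000052305, chromosome 7, 103826534 to 103828096, minus strand) was at 78.9, 23.0 and 24.7 TPM in WT and at 33.2 and 158 TPM in RankCre-ki. Within each name series the RankCre-ki library was higher, by 0.99 and 0.46, but the groups overlapped, since WT 1 lay above RankCre-ki 1. Without RankCre-ki 2 the difference of Hbb-bs was -0.10. Together 2 of the 10 genes had both RankCre-ki libraries above all WT libraries and 0 had both below, beside 18.8% and 3.71% of all tested genes. Since these genes were chosen on this comparison, nothing is read from that count.

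The paralogs within each pair are nearly the same in coding sequence, which bears on how the signal is divided. Hba-a1 and Hba-a2 differ at 1 of 429 coding bases and at 0 of 142 residues in the transcripts compared. Hbb-bs and Hbb-bt differ at 1 of 444 coding bases and at 0 of 147 residues. Of the stretches of 100 bases in the Hba-a1 transcript, 56.5% also occur in Hba-a2, and 62.6% of those in Hbb-bs occur in Hbb-bt. The split within a pair is therefore uncertain, and the sums are the firmer values. Alpha-globin transcripts summed to 99.8, 0 and 13.3 TPM in WT and to 8.35 and 37.4 TPM in RankCre-ki. Beta-globin transcripts summed to 115, 147 and 134 TPM in WT, a narrow range with a mean of 132 ± 15.9 TPM (SD, n = 3), and to 284 and 790 TPM in RankCre-ki, with a mean of 537 ± 358 TPM (SD, n = 2). The beta sum was thus higher in both RankCre-ki libraries, by 2.77 in name series 1 and 1.01 in series 2 on the log2(TPM + 1) scale, while the alpha sum of WT 1 exceeded that of both RankCre-ki libraries.

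The alpha and beta transcripts were not balanced in most libraries. Alpha genes gave 46.4% of the adult globin TPM in WT 1, 0% in WT 2, 9.03% in WT 3, and 2.86% and 4.52% in RankCre-ki 1 and 2. WT 1 also stood apart in its beta chains, of which Hbb-bt gave 31.5%, compared with 80.04% to 88.3% in the other 4 libraries. All adult globins summed to 215, 147 and 147 TPM in WT and to 292 and 827 TPM in RankCre-ki, which is under a thousandth of each library. The other globin genes, including the embryonic and theta-like genes Hba-x, Hbq1a, Hbq1b, Hbb-y and Hbb-bh1, were at 0 in all libraries for 12 of 13 genes. The exception, Hbb-bh2, was at 1.66 TPM in RankCre-ki 2 alone.

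**Figure D2:**
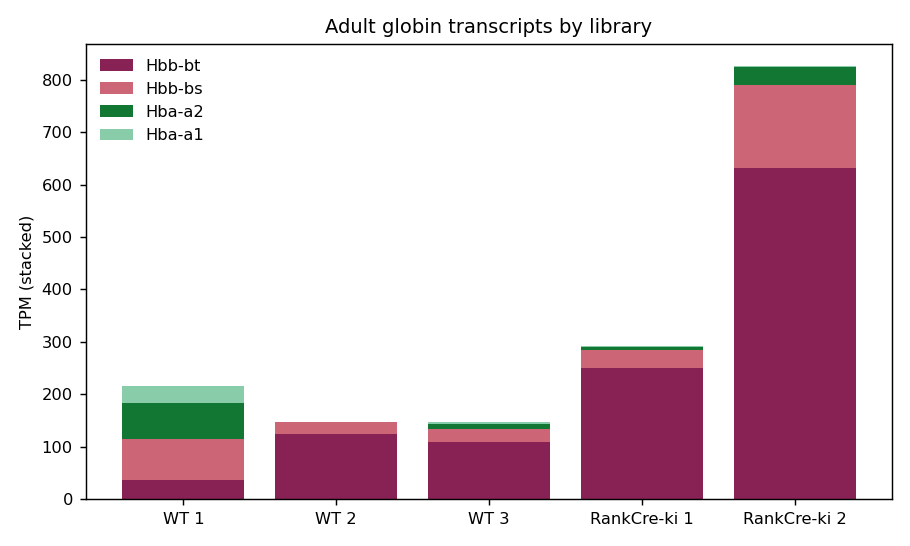
Stacked TPM of the 4 adult globin transcripts in each library, with the beta-globin genes Hbb-bt and Hbb-bs below and the alpha-globin genes Hba-a2 and Hba-a1 above. RankCre-ki 2 reaches 827 TPM and is mostly Hbb-bt, and alpha-globin transcripts make up a large part only in WT 1 (46.4%).

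Of the erythroid regulators, Gata1 (ENSMUSG00000031162, chromosome X, 7959260 to 7978071, minus strand) was either well detected or at 0. Its level was 52.8, 0 and 0 TPM in WT 1, 2 and 3, and 17.1 and 15.3 TPM in RankCre-ki. The highest and the lowest values were both WT, so the groups overlapped. The difference of 2.19 on the log2(TPM + 1) scale was smaller than the pooled SD of 2.71, and it had opposite signs in the series, with -1.72 in series 1 and 4.18 in series 2. Epor, the erythropoietin receptor, was detected in the same libraries as Gata1, at 41.1, 0 and 0 TPM in WT and at 28.7 and 24.2 TPM in RankCre-ki. In bulk libraries a smaller number of cells that carry such a transcript and less of it per cell cannot be told apart.

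Klf1 (ENSMUSG00000054191, chromosome 8, 84901928 to 84905291, plus strand) was at 1.73, 0 and 0 TPM in WT and at 1.09 and 46.3 TPM in RankCre-ki. RankCre-ki 2 was the only library with more than 2 TPM, and RankCre-ki 1 lay below WT 1. The difference was 2.83 on the log2(TPM + 1) scale (pooled SD 1.96) and 0.58 without RankCre-ki 2. Alas2 (ENSMUSG00000025270, chromosome X, 150547375 to 150570638, plus strand) was at 0, 0 and 1.34 TPM in WT and at 0 and 1.60 TPM in RankCre-ki. It was listed at 0 in 3 of 5 libraries and did not exceed 2 TPM in any, and its difference of 0.28 turned sign under quantile normalization (-0.30), without RankCre-ki 2 (-0.41) and within name series 2 (-0.61).

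The 10 genes thus differed in which libraries carried them. In TPM, which is corrected for length, Hbb-bt was the highest of the 10 in every library but WT 1, where Hbb-bs was. Nprl3 was 2nd of the 10 in RankCre-ki 1 and 4th in RankCre-ki 2. Set against the median of all tested genes, the log2(TPM + 1) differences were 4.47 for Nprl3, 2.31 for Klf1, 1.80 for Hbb-bt, 1.67 for Gata1, 1.25 for Mpg, 0.49 for Hbb-bs, 0.37 for Hba-a2, -0.10 for Rhbdf1, -0.23 for Alas2 and -1.28 for Hba-a1. Without RankCre-ki 2 they were 4.42 for Nprl3, -0.0036 for Klf1 and 1.07 for Hbb-bt. Without WT 1 they were 3.60 for Gata1 and -0.25 for Mpg. In the order with all 5 libraries, neighbours from Klf1 to Hba-a1 were closer to each other than the larger of their pooled SDs. Nprl3 was picked with these values known, and the pseudocount narrows the spread of its WT values near 0. Its place in the order is therefore only described. Within both name series the RankCre-ki library was higher for Nprl3, Mpg, Rhbdf1, Hbb-bs, Hbb-bt and Klf1, and the series had opposite signs for Hba-a1, Hba-a2, Alas2 and Gata1.

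**Figure D3:**
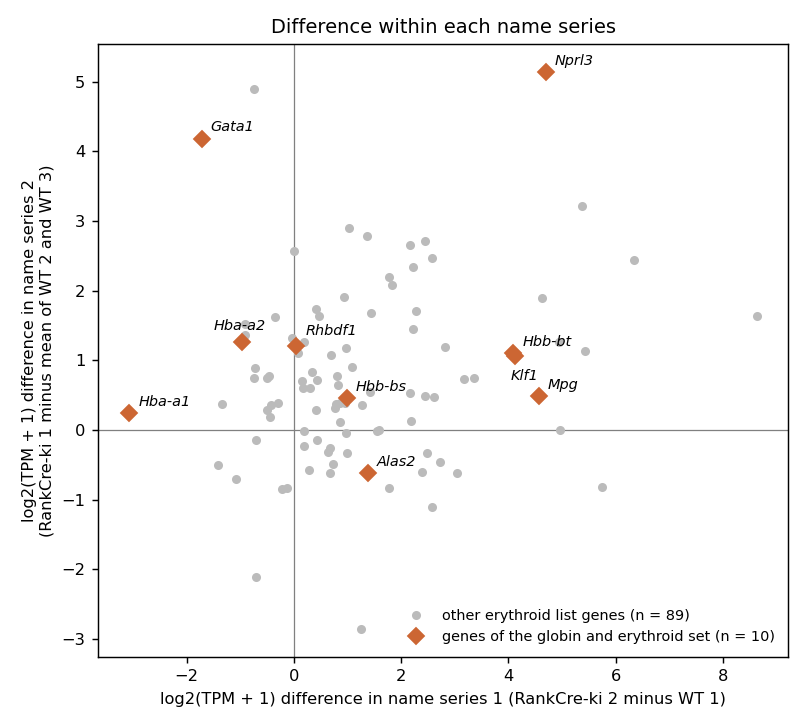
Difference RankCre-ki minus wild-type in log2(TPM + 1) within name series 1 (horizontal, 1 library against 1) and name series 2 (vertical, 1 library against the mean of 2), for the 10 genes (orange diamonds) and 89 other erythroid genes (grey). Nprl3 lies far from 0 on both axes (4.69 and 5.14), Mpg, Klf1 and Hbb-bt mainly on the horizontal one, and Gata1 and Hba-a1 have opposite signs on the axes.

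To place the 10 genes in their pathways, lists of other genes were read from the same limma fit. Of 202 listed genes 157 were tested, and 0 passed the threshold, as for all genes. At an unadjusted p under 0.05, 13 (8.28%, compared with 6.34% of all tested genes) were higher and 0 lower (compared with 0.529%). This split was 9 against 5 with median-ratio scaling and 10 against 2 with quantile normalization. For all tested genes the splits under these scalings were 639 against 332 and 425 against 191. Both RankCre-ki libraries lay above all WT libraries for 38 of the 157 (24.2%, compared with 18.8% of all tested genes) and below for 5 (3.18%, compared with 3.71%). RankCre-ki 1 alone lay above all WT libraries for 67 (42.7%, compared with 33.8%), and RankCre-ki 2 alone for 61 (38.9%, compared with 32.6%).

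Among 26 tested transcription factors and cofactors of the erythroid lineage, the partners of Gata1 and Klf1, 4 (15.4%) had an unadjusted p under 0.05, all higher, beside 6.34% of all tested genes. RankCre-ki 1 and 2 were both above all WT libraries for 8 (30.8%, compared with 18.8%) and below for 2 (7.69%, compared with 3.71%). These 2 were Bach1, a repressor of globin genes that senses haem, and Tcf12, named after their values were seen, with a limma p of 0.545 and 0.481 before adjustment (0.986 and 0.982 after). Gata2, the GATA factor of stem and progenitor cells that Gata1 replaces during erythroid differentiation, was at 16.4, 8.93 and 36.4 TPM in WT and at 106 and 102 TPM in RankCre-ki. Its difference was 2.50 ± 0.75 (SE) on the log2(TPM + 1) scale, which gave an unadjusted p of 0.0108 in limma (0.521 adjusted). Unlike Gata1 it was detected in every library, and its groups did not overlap. Lyl1, a basic helix-loop-helix factor of early progenitors, was at 39.5, 28.3 and 67.3 TPM in WT and at 145 and 196 TPM in RankCre-ki. Gfi1b, a repressor needed in the erythroid and megakaryocytic lineages, was at 4.44, 26.8 and 24.7 TPM in WT and at 57.4 and 234 TPM in RankCre-ki. Zbtb7a, a repressor of foetal globin genes, was at 1.56, 4.51 and 5.04 TPM in WT and at 20.4 and 62.5 TPM in RankCre-ki. Zfpm1, the cofactor FOG-1 of Gata1, was at 1.22 to 1.38 TPM in WT and at 6.33 and 5.41 TPM in RankCre-ki, whereas Tal1 overlapped between the groups, with 0.321 to 7.52 TPM in WT and 19.6 and 5.17 TPM in RankCre-ki.

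Haem synthesis was represented by more than Alas2. Of 15 tested genes 2 (13.3%, compared with 6.34% of all tested genes) had an unadjusted p under 0.05, both higher. RankCre-ki 1 and 2 were both above all WT libraries for 5 (33.3%, compared with 18.8%) and below for 0. Ppox, which makes protoporphyrin in the mitochondrion, was at 0.0844, 0.778 and 0.409 TPM in WT and at 13.6 and 43.9 TPM in RankCre-ki. Its difference was 4.2 ± 1.25 (SE), which gave an unadjusted p of 0.00987 in limma (0.521 adjusted), and like Nprl3 it was below 1 TPM in every WT library. Ppox thus passed the filter for testing through the RankCre-ki libraries alone, which limits what its p can show. Slc25a39, a mitochondrial carrier, was at 24.5, 3.88 and 43.6 TPM in WT and at 91.8 and 113 TPM in RankCre-ki. Fech, which inserts the iron, was at 29.6, 0.130 and 48.6 TPM in WT and at 55.0 and 61.2 TPM in RankCre-ki, and the low library was WT 2, in which the alpha-globin genes were at 0. Among 14 tested genes of iron uptake and storage, 1 (7.14%, compared with 6.34%) was higher at an unadjusted p under 0.05. Both RankCre-ki libraries lay above all WT libraries for 4 (28.6%, compared with 18.8%) and below for 1 (7.14%, compared with 3.71%). The first was Steap3, a ferrireductase of endosomes, at 0.0211, 0 and 0 TPM in WT and at 5.55 and 4.53 TPM in RankCre-ki. Steap3 too passed the filter through the RankCre-ki libraries alone. The transferrin receptor gene Tfrc was at 3.01, 0.00888 and 6.43 TPM in WT and at 17.8 and 9.33 TPM in RankCre-ki. The gene with both below was Iscu, the scaffold for iron-sulphur clusters, at 364, 392 and 413 TPM in WT and at 284 and 135 TPM in RankCre-ki (unadjusted p of 0.0619 in limma, 0.768 adjusted).

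Genes of the red cell membrane were sparser than those of the terminal erythroid list. Slc4a1, the anion exchanger band 3, was at 0 in all libraries, and Ahsp was not analysed here. Of 22 genes of the red cell membrane 10 passed the filter, and 0 had an unadjusted p under 0.05. Both RankCre-ki libraries lay above all WT libraries for 3 (30%, compared with 18.8% of all tested genes). Rhag was 1 of these, at 12.6, 16.9 and 0 TPM in WT and at 18.4 and 45.1 TPM in RankCre-ki. Of 20 terminal erythroid genes 16 were tested, among them Gpx1, at 828 to 1158 TPM in WT and at 1416 and 1292 TPM in RankCre-ki. Of the 16, 1 (6.25%, compared with 6.34% of all tested genes) was higher at an unadjusted p under 0.05. Both RankCre-ki libraries lay above all WT libraries for 3 (18.8%, the share of all tested genes). Of 8 tested genes of erythropoietin signalling the numbers were 0 and 1 (12.5%, compared with 18.8%). The 6 erythroid lists together held 89 tested genes with a median difference of 0.70, beside 0.52 for all tested genes. Of these, 24 (27.0%, compared with 18.8%) had both RankCre-ki libraries above all WT libraries and 3 (3.37%, compared with 3.71%) had both below.

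**Figure D4:**
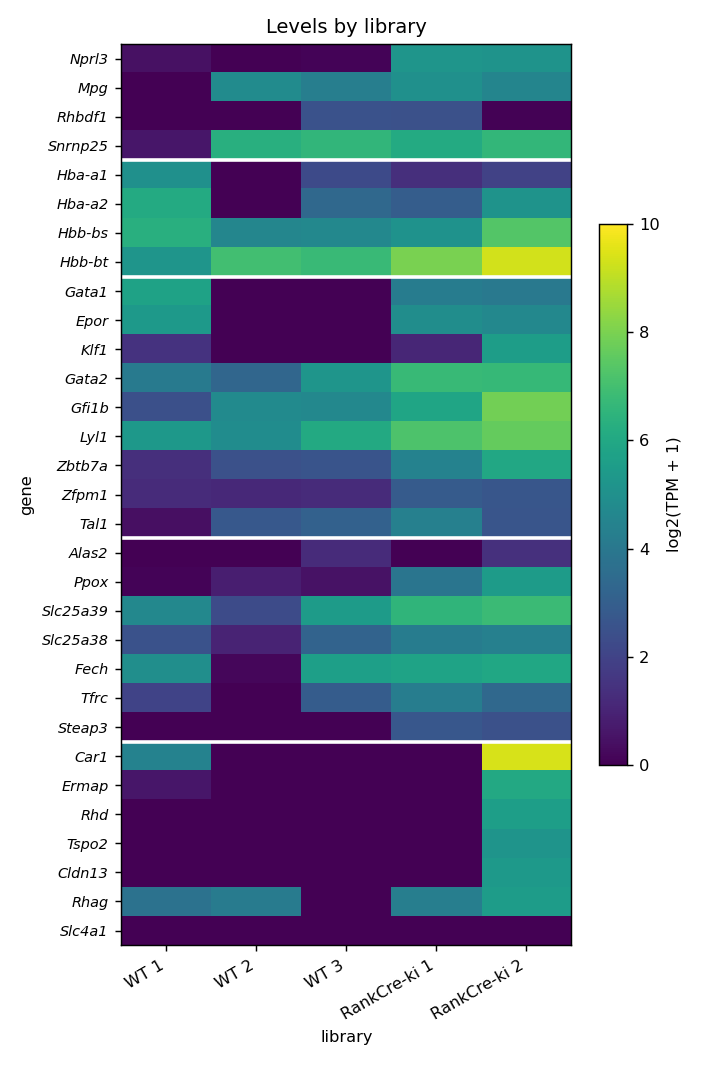
Level as log2(TPM + 1), from dark (0) to yellow (10), in each library (columns) for alpha-globin flank genes, adult globins, erythroid regulators, haem and iron genes, and red cell genes (rows, in blocks from top to bottom). Nprl3, Ppox and Steap3 are dark in all WT columns, Gata1 and Epor are dark in WT 2 and WT 3, and Car1, Ermap, Rhd, Tspo2 and Cldn13 are bright mainly in RankCre-ki 2.

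RankCre-ki 2, the library with the most Klf1 and beta-globin, was also the highest by far for some red cell genes, such as Rhd, Tspo2 and Cldn13. This was noticed in the values, and genes were then counted that reached 5 TPM in RankCre-ki 2 and at least 4 times the level of each other library. Klf1 met this rule, and so did 10 of 94 genes of the erythroid lists with 5 TPM in any library (10.6%), compared with 9.09% of all such genes, a share near that of all genes. They are Add2, Car1, Cldn13, E2f2, Ermap, Gfi1b, Mt1, Mt2, Rhd and Tspo2. Of these Gfi1b, Mt1 and Car1 also exceeded 10 TPM in at least 1 other library. Car1, an erythroid carbonic anhydrase, was at 674 TPM in RankCre-ki 2, at 20.7 TPM in WT 1 and at 0 in the others. The blood group genes Ermap and Rhd were at 64.0 and 47.3 TPM in RankCre-ki 2 and at most at 0.514 TPM elsewhere. The membrane list gave 5 of 15 (33.3%) and the terminal list 4 of 16 (25%), with Rhd in both. The 5 include Rhd, Tspo2 and Cldn13, which prompted the rule. Transcription factors and cofactors gave 2 of 26 (7.69%). Haem synthesis gave 0 of 15, iron uptake and storage 0 of 14 and erythropoietin signalling 0 of 9. Nothing is read from the shares of single lists. The same rule gave Hba-a1 in WT 1, where 4.06% of all genes met it. RankCre-ki 1 gave 1 erythroid gene, Socs3, beside 2.56% of all genes. Nprl3 was not of this kind, since it was as high in RankCre-ki 1 as in RankCre-ki 2.

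Marker sums of other cells that a sort of this kind could hold were set beside these values. The 11 erythroblast markers summed to 112, 37.1 and 35.8 TPM in WT and to 112 and 862 TPM in RankCre-ki, and Slc4a1 was at 0. Of the 862 TPM of RankCre-ki 2, 674 TPM came from Car1 alone, a gene named above for its level in that library. The highest sum was thus in RankCre-ki 2, with the highest Hbb-bt and Klf1, and the sum of RankCre-ki 1 was near that of WT 1, although RankCre-ki 1 held more Hbb-bt and Nprl3. HSC markers summed to 996 to 1566 TPM in WT and to 2127 and 1245 TPM in RankCre-ki. Megakaryocyte markers summed to 83.4 to 205 TPM and to 180 and 178 TPM. The sums of neutrophil markers (176 to 428 TPM against 316 and 416 TPM, with Elane, Lcn2 and Ctsg at 0), macrophage markers (231 to 322 TPM against 333 and 151 TPM, with Adgre1, Cd5l and C1qc at 0) and lymphocyte markers (40.0 to 196 TPM against 105 and 75.5 TPM, with Cd79a at 0) did not follow the beta-globin sum. Prtn3 made up most of the neutrophil sum, at 421, 219 and 175 TPM in WT and at 305 and 388 TPM in RankCre-ki. Lyz2 made up most of the macrophage sum, at 228, 268 and 250 TPM in WT and at 311 and 103 TPM in RankCre-ki. The neutrophil and macrophage sums thus describe mainly a single gene each. Both RankCre-ki libraries lay above all WT libraries for 1 of 4 tested neutrophil genes (25%) and 1 of 5 lymphocyte genes (20%). The share was 0 of 5 for macrophage genes and 18.8% for all tested genes. S100a8, a neutrophil gene, was at 0.0677, 0 and 0 TPM in WT and at 8.31 and 12.9 TPM in RankCre-ki (unadjusted p of 0.00512 in limma, 0.521 adjusted). Klrb1c, of natural killer cells, was at 0.0516, 0 and 0 TPM in WT and at 4.4 and 12.8 TPM in RankCre-ki (unadjusted p of 0.00775 in limma, 0.521 adjusted). S100a8 and Klrb1c were thus low in WT and present in both RankCre-ki libraries, as Nprl3 was. They passed the filter for testing through those libraries alone. Other genes of the lists did not go with them. S100a9 was at 2.17, 0 and 0 TPM in WT and at 0 in both RankCre-ki libraries. Nkg7, of the lymphocyte list, was at 0, 35.6 and 45.7 TPM in WT and at 26.2 and 22.3 TPM in RankCre-ki. The part of other cells in the levels of the 10 genes was not tested.

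The other partners of the flank genes were read in the same way. The Nprl3 protein works with Nprl2 and Depdc5 in GATOR1. Nprl2 was at 8.91, 0 and 7.18 TPM in WT and at 17.1 and 32.2 TPM in RankCre-ki (limma p of 0.113, adjusted p of 0.881). Depdc5 was at 19.3, 6.97 and 1.71 TPM in WT and at 20.5 and 2.2 TPM in RankCre-ki. Both were thus detected in WT libraries that nearly lacked Nprl3. Of 10 tested genes of GATOR1, GATOR2 and the KICSTOR complex 0 had an unadjusted p under 0.05. Both RankCre-ki libraries lay above all WT libraries for 2 (20%, compared with 18.8% of all tested genes). In the list of mTORC1 and its Rag GTPases 1 of 24 (4.17%, compared with 6.34%) was higher at an unadjusted p under 0.05. It was Tsc1, an mTORC1 inhibitor, at 0.191, 0 and 1.60 TPM in WT and at 10.9 and 6.38 TPM in RankCre-ki. In this list, 4 genes (16.7%) had both RankCre-ki libraries above all WT libraries, a share near that of all genes.

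Base excision repair, the pathway of Mpg, held 19 tested genes. Of these, 1 (5.26%, compared with 6.34% of all tested genes) was higher at an unadjusted p under 0.05. Both RankCre-ki libraries lay above all WT libraries for 2 (10.5%, compared with 18.8%) and below for 1 (5.26%, compared with 3.71%). The first was the uracil glycosylase gene Smug1, at 0.0772, 0.557 and 0.0223 TPM in WT and at 17.0 and 7.13 TPM in RankCre-ki. Smug1 passed the filter through the RankCre-ki libraries alone. The last was Fen1, a flap endonuclease, at 61.2, 74.9 and 104 TPM in WT and at 43.5 and 30.5 TPM in RankCre-ki (unadjusted p of 0.0955 in limma, 0.866 adjusted). The list of rhomboid proteins and ADAM17, the pathway of Rhbdf1, held 9 tested genes. Of these, 2 (22.2%, compared with 6.34%) were higher at an unadjusted p under 0.05. Both RankCre-ki libraries lay above all WT libraries for 4 (44.4%, compared with 18.8%). These included Frmd8, which stabilizes iRhom proteins, at 4.50, 2.07 and 8.60 TPM in WT and at 23.1 and 63.0 TPM in RankCre-ki. The list for the alpha-globin locus and its wider syntenic group held 6 tested genes. Its genes need not lie beside Nprl3 in the mouse. Of the 6, 1 (16.7%, compared with 6.34%) was higher at an unadjusted p under 0.05. Both RankCre-ki libraries lay above all WT libraries for 2 (33.3%, compared with 18.8%) and below for 1 (16.7%, compared with 3.71%). Rgs11, a regulator of G-protein signalling, was at 0 in all WT libraries and at 14.7 and 11.1 TPM in RankCre-ki (limma p of 0.00406, adjusted p of 0.521). It passed the filter for testing through the RankCre-ki libraries alone, which limits what its p can show. Polr3k, a subunit of RNA polymerase III, went the other way, at 121, 347 and 152 TPM in WT and at 96.1 and 52.8 TPM in RankCre-ki (limma p of 0.0527, adjusted p of 0.739).

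**Figure D5:**
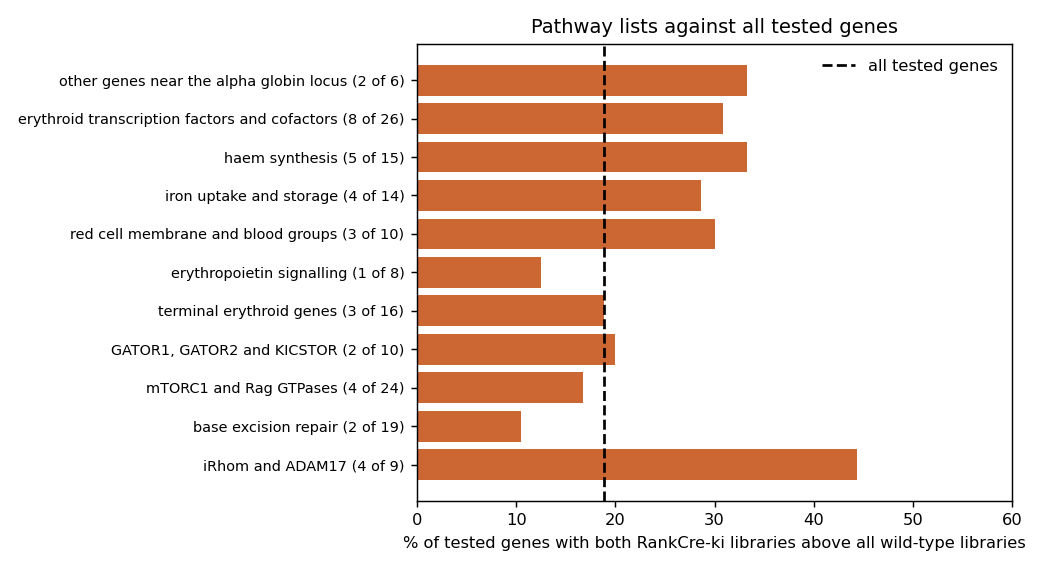
Share of the tested genes of each list, in percent, with RankCre-ki 1 and 2 both higher than every wild-type library, with the count beside each list name and a dashed line at the share of all tested genes (18.8%). The lists hold 6 to 26 tested genes, and their shares run from 10.5% (base excision repair) to 44.4% (iRhom and ADAM17).

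The genes most alike to Nprl3 over the 5 libraries were looked for by the root mean square difference of centred log2(TPM + 1) values, among 7123 tested genes whose mean reached 10 TPM. The nearest were Gm22043 (0.175), Zfp524 (0.187), Gm23882 (0.200), Scarb1 (0.219) and Gm35035 (0.299), where the median gene was at 2.46. Scarb1, the receptor for high-density lipoprotein, was at 0.864, 0.0624 and 0.593 TPM in WT and at 36.4 and 37.6 TPM in RankCre-ki. The other 4 were listed at 0 in all WT libraries. None of the 5 is on the pathway lists. For the summed adult globin TPM the nearest genes were Fos (0.275), Zfp36 (0.291), Rpl18 (0.310), Vars (0.326) and Pinx1 (0.329), where the median gene was at 1.32. Fos, an immediate early gene, was at 336, 264 and 175 TPM in WT and at 439 and 877 TPM in RankCre-ki. The 10 genes themselves were left out of this search, so it does not show how near Nprl3 and the globin genes are to each other.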

How the data were processed

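Bulk libraries of sorted HSCs were made by a Smart-seq2-type protocol and tagmented. The deposited values are TPM per gene, provided by the authors in a table of 55427 rows, and each library summed to 1000000. The submitters' processing notes name bcl2fastq 2.20.0, featureCounts 2.0.1 and build mm10. The software behind the TPM is not given in the sources used here, and positive values reach down to 1.13e-10 TPM. How such values arose was not tested. TPM holds no depth, and the spread between libraries is the only measure of precision. The libraries are not stated to be separate animals.

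The 92 spike-in rows, all at 0, were removed. Of 55335 genes, 55154 (99.7%) matched GENCODE M21 (GRCm38, the build called mm10), which gave coordinates. Groups came from the sample titles. Genes that reached 1 TPM in 2 or more libraries were compared on log2(TPM + 1) with limma 3.58.1 in R 4.3.3 (lmFit, eBayes with trend, all 5 libraries, no covariate, two-sided, Benjamini-Hochberg adjustment over 13981 genes), with the threshold of the study, since its count model needs counts. The code was tested on simulated data. Motifs and sequences came from RefSeq promoters (GRCm38.p6), and coding comparisons from the longest open reading frame of GENCODE transcripts.

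The 10 genes and the lists were chosen with earlier results of these data known. Named list genes are, from each list, up to 4 by lowest p for which RankCre-ki 1 and 2 both lay beyond all WT libraries, and a fixed set read whatever its values. Genes of the sort, the alleles and sex were named as checks of the labels, and genes high in RankCre-ki 2 after their values were seen. Pseudocounts, filters, scalings, blocks and left-out libraries were varied. Some genes of the lists are not reported by name here.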

Additional observations from a re-analysis of the deposited data

How the results depend on the processing

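Past the threshold were 0 genes with pseudocounts of 0.1 and 0.5, with a filter of 5 TPM, with no filter, with median-ratio scaling, with quantile normalization, with rescaling and with the name series as a block. Leaving out each library in turn gave 0 to 304 genes. The value was 304 without RankCre-ki 1 and 1 (Gm15920) without WT 1. Without RankCre-ki 1 a lone library is assumed to vary like the WT libraries, and 2 pathway genes, Rgs11 and Steap3, passed, against 0 under every other alternative. With the replicate number as a block, a fit in which WT 3 has no partner, 1 gene (Gm28437) passed. The samples share only a number, since the deviations of equally numbered libraries correlated at -0.38 and -0.195. Pathway genes higher at an unadjusted p under 0.05 numbered 8 to 18 over the alternatives. In alternatives chosen after seeing the data, the 38 pathway genes with RankCre-ki above all WT became 67 with RankCre-ki 1 alone and 61 with RankCre-ki 2 alone. Over 14 alternatives the difference of Nprl3 ran from 4.15 with quantile normalization to 7.40 with a pseudocount of 0.1, and the sign did not turn for Nprl3, Mpg, Hbb-bt and Klf1. It turned in 3 alternatives each for Rhbdf1, Hba-a2 and Alas2, in 2 for Hba-a1, and in 1 each for Hbb-bs and Gata1. The 2 RankCre-ki libraries and the unknown depth limit all of these values.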
